A study of Mus musculus with 12 samples.

Results

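The 34 genes described here encode the machinery that copies DNA and the enzymes that supply its building blocks: the loaders of the replicative helicase, the helicase and its activators, the polymerases with their clamp, the makers of deoxynucleotides, the histone chaperones that follow the fork, and the E-type cyclins. Probes of the 34 genes were found by gene name among the gene probes of the array, with older and current symbols counted as the same gene. The list itself was chosen with earlier results of these data known. All 34 had at least 1 tested probe, of 15365 gene names tested in all; the members had 47 probes, of which 43 were tested. RNA from livers of Abcb4(-/-) mice was set against RNA from livers of Abcb4(+/+) mice, each pair on 1 Agilent whole mouse genome array read in 2 colours. Abcb4 is the exporter of phospholipid into bile. Its loss leaves mice with an inflamed, scarring biliary tree, used as a model of sclerosing cholangitis. Over 9 weeks the knockout mice ate a diet with cholic acid (CA), meant in the design text to make the disease more active, or with ursodeoxycholic acid (UDCA), meant to make it less so. UDCA lacks a hydroxyl group that CA carries and holds another in the opposite orientation. Each diet had 6 arrays from 5 knockout livers without pooling, and in each diet 1 liver was hybridised again with the dyes exchanged, on an array that the labels do not name. The labels give no dose, no diet for the wild-type animals, and no sex, age or strain. No array held a knockout liver without bile acid, so a ratio to wild type holds the lost gene and the diet together.

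Before a cell can copy its DNA, the origin recognition complex, Cdc6 and Cdt1 place rings of the Mcm2-7 helicase on the chromosomes, a step called licensing. Cdc45, the GINS complex and Mcm10 then turn the rings into moving helicases, the primase and polymerases build the new strands on the clamp Pcna, and ribonucleotide reductase with thymidylate synthase and thymidine kinase supplies the nucleotides. Most hepatocytes of a healthy adult liver rest outside the cell cycle, and the genes of this machinery are switched on together when cells enter S phase, largely by transcription factors of the E2F family.

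The 12 arrays lay on 5 slides, and CA replicates 1 to 4 shared no slide with UDCA. Median intensity over all spots, controls included, ran from 247 to 1194 in green and from 58.4 to 148 in red. In a channel 31.6% to 68.4% of gene spots stood well above background. Precision is limited by how few arrays there are. The deleted gene was lower in knockout liver: the brighter Abcb4 probe read -0.73 ± 0.21 with CA and -1.28 ± 0.21 with UDCA as log2 ratio ± standard error (limma adjusted p = 0.00699 and 0.00032). A dimmer Abcb4 probe read -2.73 and -1.77. The direction rests on the dyes in the labels; the deposited series table runs as wild type over knockout for the 6 CA arrays and as knockout over wild type for the 6 UDCA arrays. All 10 hepatocyte markers examined were well above background in wild-type liver on all 12 arrays. Their ratios moved with the dye, since the list's median lay between 0.41 and 1.89 on the arrays with the knockout in Cy5 and between -2.67 and -0.57 on those with it in Cy3. CA replicates 1 and 2, which share a slide, gave the highest ratios of several dim members, and UDCA replicate 6, alone on its slide, gave the lowest ratio of each of the 6 helicase subunits; calls that were lost without them are named beside the results.

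In livers of knockout mice fed CA, 30 of the 34 members were higher than in wild type and 2 were lower, at an adjusted p under 0.05 over all 21688 tested probes. The same fit called 59.6% of all tested probes with CA, 34.2% higher and 25.4% lower. With UDCA 19 members were higher and 1 was lower, where 23.4% of all probes were called, 15.1% higher and 8.39% lower. Orc1, Cdc6, Chaf1a, Uhrf1 and Ccne2 met the filter on dim probes through the knockout channel only, where they are high; without these 5, 25 of 29 members were higher and 2 lower with CA, and 18 were higher and 1 lower with UDCA. Values that follow come from limma's fit unless stated and are log2 ratios, positive where the knockout was higher, with the standard error of 6 arrays from 5 livers; a value of 1 is a doubling. The median ratio of the members was 0.86 with CA and 0.42 with UDCA, beside 0.05 and 0.03 for all tested probes. Array by array, the members' median lay between 0.66 and 1.34 under CA and between 0.20 and 0.52 under UDCA, so the diets did not overlap. On 28 of the 34 members every measured CA array lay above 0, and on 16 every measured UDCA array did. The 28 include the 5 members that met the filter through the knockout channel only. The same share over all tested probes was not computed, so these counts have no background beside them. With CA replicates 1 and 2 left out, 25 members were called higher and 2 lower with CA, with a median of 0.78. Of all tested probes 6371 were then higher and 4671 lower. Without UDCA replicate 6, 16 members were called higher and 1 lower with UDCA, with a median of 0.42. Of all tested probes 2687 were then higher and 1526 lower. By dye, the members' median was 1.14 on the 3 CA arrays with the knockout in Cy5 and 0.88 on the 3 with it in Cy3, and 0.30 and 0.51 for UDCA. In whole-liver RNA, more RNA per cell and more cells of a dividing kind cannot be told apart.

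**Figure D1:**
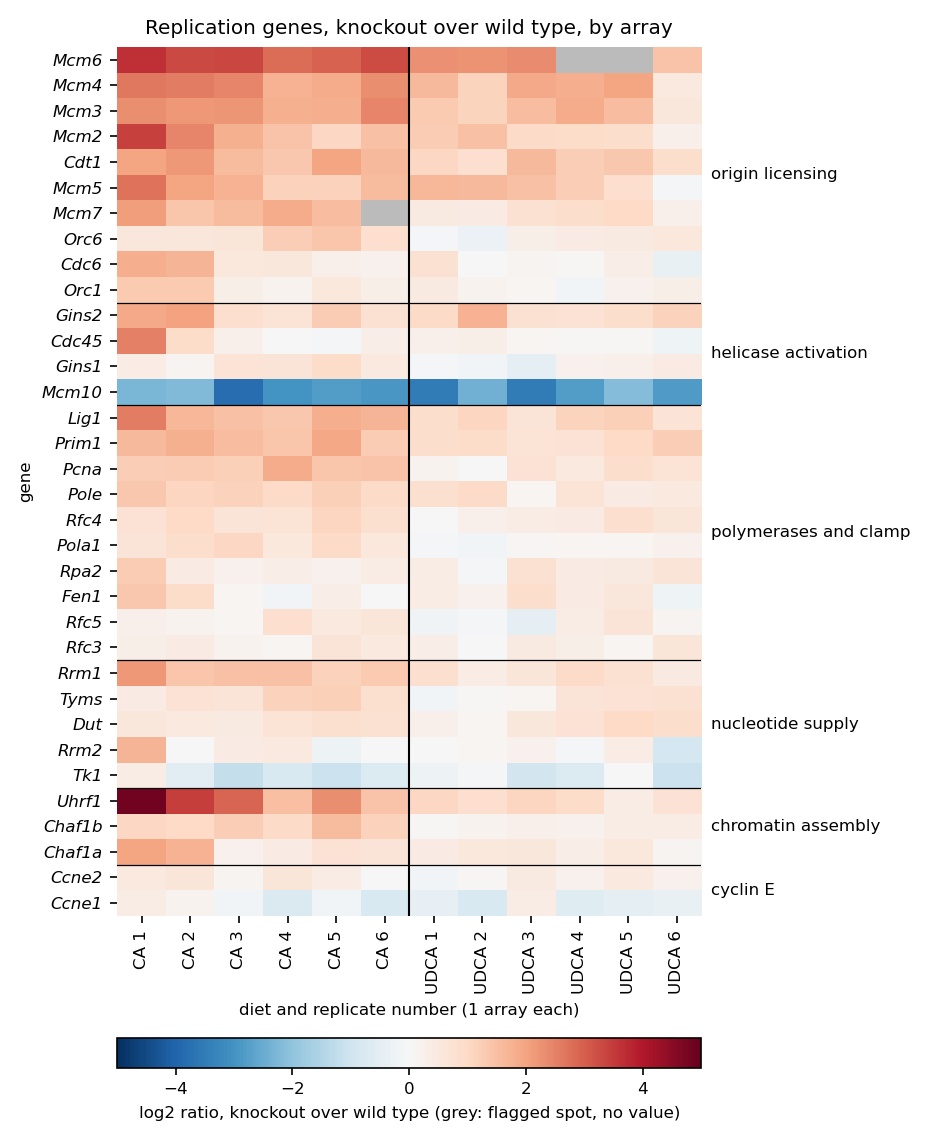
Log2 ratio of knockout over wild type for each of the 34 genes (rows, by role and then by fitted ratio with CA) on each of the 12 arrays (columns, by diet and replicate number). Red is higher and blue lower in the knockout, and grey marks a spot flagged by the scanner. The Mcm6 row is the reddest of the licensing genes on the CA side, from 2.80 to 3.66, and the Mcm10 row is blue on all 12 arrays.

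**Figure D2:**
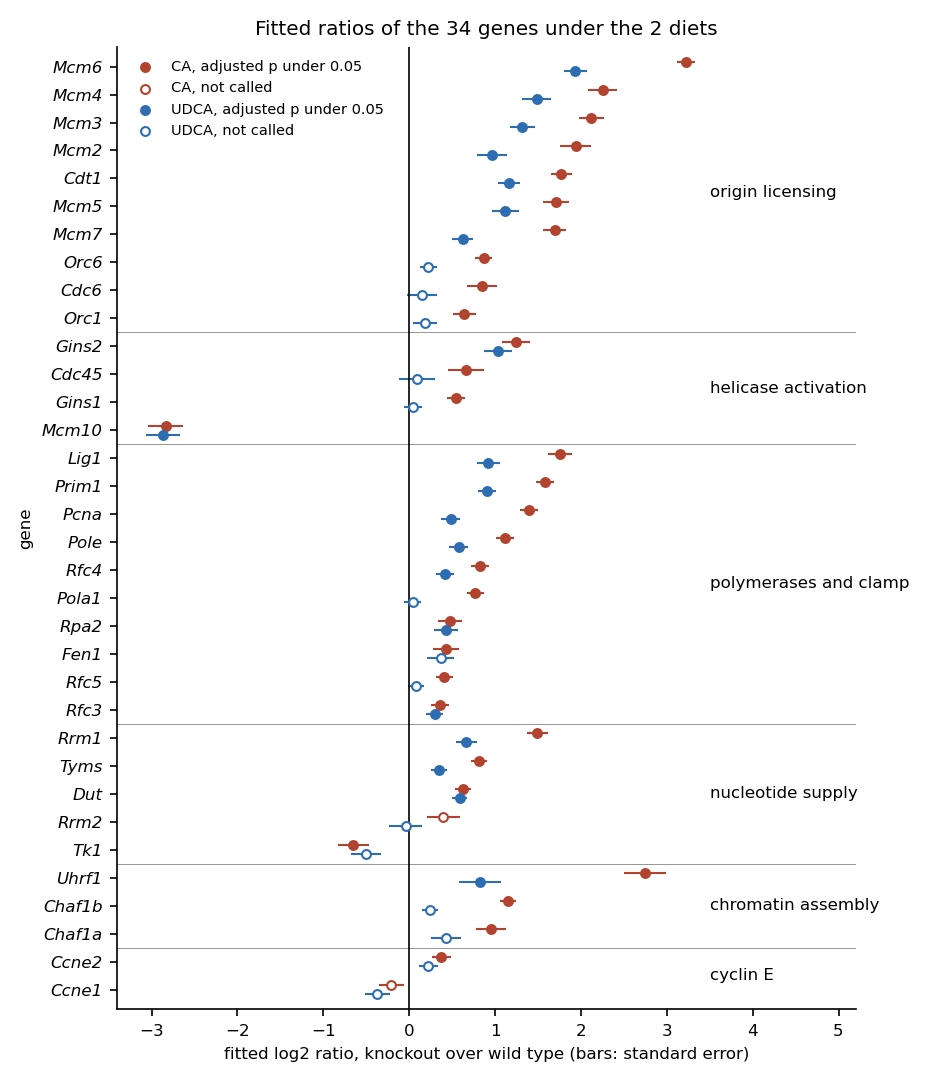
Fitted log2 ratio of knockout over wild type (horizontal axis) with its standard error for each of the 34 genes (vertical axis, by role), CA in red and UDCA in blue, filled where the adjusted p was under 0.05. The CA point lies to the right of the UDCA point for nearly all genes, Tk1 being the exception, and Mcm10 stands alone near -2.8 under both diets.

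The start regions of the members were searched for the E2F consensus and for the CCAAT box, a motif common in promoters of cell cycle genes. RefSeq promoters (GRCm38.p6, 250 bases before to 50 after the annotated start) were matched for 29 of the 34 members, with 34 promoters in all. The E2F consensus was searched on both strands as TTTCCCGC, TTTCGCGC, TTTGCCGC and TTTGGCGC, and stood in 11 of the 34 promoters (32.4%), against 2.26% of all 32851 promoters, 3.77% of those of tested genes and 4.16% of those of genes called higher with CA. The CCAAT box stood in 20 of the 34 (58.8%), against 37.4% of all promoters. An E2F match lay in a promoter of Mcm3, Mcm5, Mcm6, Mcm7, Cdc6, Cdt1, Orc1, Lig1, Pola1, Rfc3 and Uhrf1. These 11 genes had a median ratio of 1.71 with CA and 0.82 with UDCA, and all 11 were called higher with CA. The 18 matched members without one had medians of 0.74 and 0.36, with 14 called higher and 2 lower with CA. A match is a run of letters and not a shown binding site, and its absence says only that these letters are not in this window.

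Sequences follow for 4 of these promoters, 5′ to 3′ on the strand of the gene, with E2F matches in capitals. Mcm6 and Mcm5 are shown because their helicase subunits rose and their matches on opposite strands overlap by 4 bases. Mcm10 and Tk1 are shown because they are the members that fell, with no whole match in the window. These genes were picked by their values and do not stand for the other members. The Mcm6 promoter (chr1:128359656-128359955, minus strand) holds 3 matches and the Mcm5 promoter (chr8:75109259-75109558, plus strand) 2. The Mcm10 promoter (chr2:5012742-5013041, minus strand) holds no E2F match and 3 CCAAT boxes, and the Tk1 promoter (chr11:117825965-117826264, minus strand) holds neither. The Mcm10 window ends in tttggcg, the start of TTTGGCGC, and the next base was not read.
Mcm6: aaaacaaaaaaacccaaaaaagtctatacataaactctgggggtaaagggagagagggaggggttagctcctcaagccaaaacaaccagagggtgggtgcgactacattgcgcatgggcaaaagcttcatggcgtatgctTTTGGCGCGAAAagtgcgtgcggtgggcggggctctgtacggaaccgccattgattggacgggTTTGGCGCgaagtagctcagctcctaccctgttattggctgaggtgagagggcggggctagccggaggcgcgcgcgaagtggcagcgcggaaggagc
Mcm5: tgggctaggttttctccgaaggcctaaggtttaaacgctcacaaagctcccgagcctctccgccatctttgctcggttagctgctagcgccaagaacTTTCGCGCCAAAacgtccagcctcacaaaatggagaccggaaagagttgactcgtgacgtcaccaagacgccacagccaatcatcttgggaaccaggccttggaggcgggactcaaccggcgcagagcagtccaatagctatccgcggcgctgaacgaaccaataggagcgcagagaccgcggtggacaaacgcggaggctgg
Mcm10: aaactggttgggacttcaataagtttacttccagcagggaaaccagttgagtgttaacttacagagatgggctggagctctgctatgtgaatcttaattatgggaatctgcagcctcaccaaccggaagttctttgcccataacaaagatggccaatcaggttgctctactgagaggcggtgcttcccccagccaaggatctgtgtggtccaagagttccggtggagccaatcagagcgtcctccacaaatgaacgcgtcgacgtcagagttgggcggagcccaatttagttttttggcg
Tk1: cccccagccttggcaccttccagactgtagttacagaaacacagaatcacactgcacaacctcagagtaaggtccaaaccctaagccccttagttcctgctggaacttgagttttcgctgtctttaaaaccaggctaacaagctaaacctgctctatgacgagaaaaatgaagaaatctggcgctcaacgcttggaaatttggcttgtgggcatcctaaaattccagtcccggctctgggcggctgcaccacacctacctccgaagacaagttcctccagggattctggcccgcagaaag

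**Figure D3:**
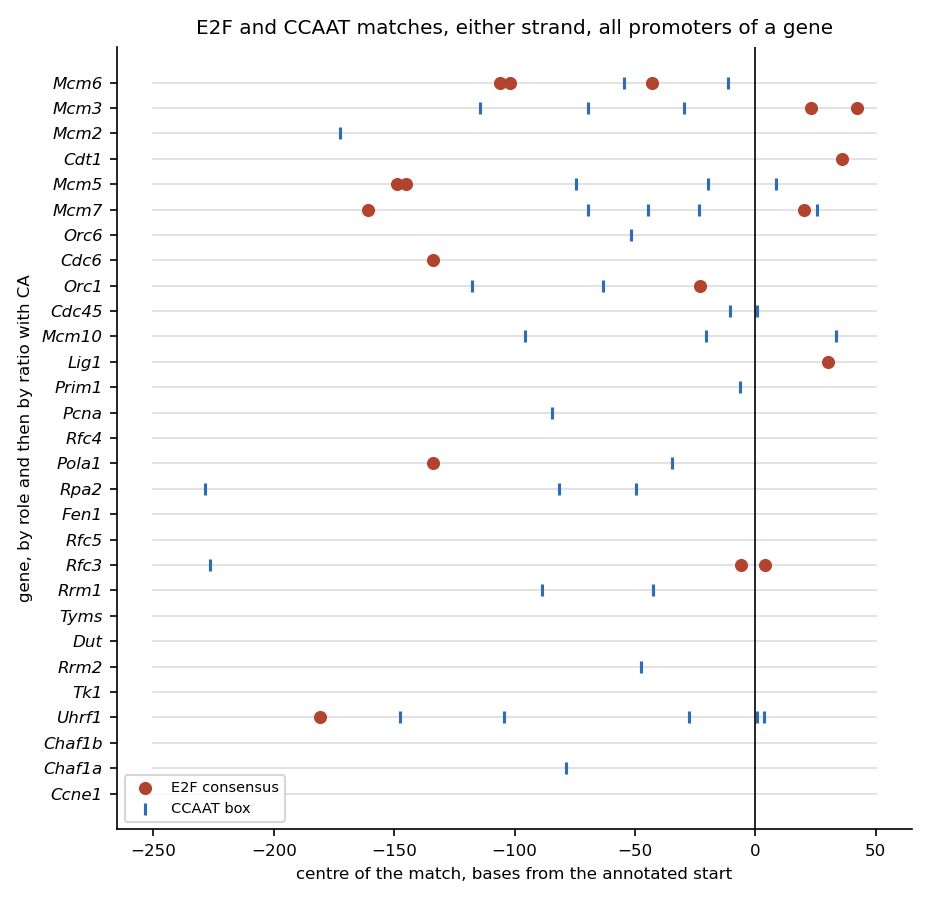
Centre of each E2F match (red circles) and CCAAT box (blue bars) on either strand, in bases from the annotated start (horizontal axis), for the 29 genes with a RefSeq promoter (vertical axis, by role and then by ratio with CA); promoters of a gene with several are drawn on 1 line. The 3 matches of Mcm6 lie at -106, -102 and -43, and 18 of the 29 lines carry no red circle, those of Mcm10 and Tk1 and of the raised Mcm2, Prim1, Rrm1 and Pcna among them.

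All 10 licensing genes were higher with CA, with a median of 1.74, and 7 of them with UDCA, with a median of 1.04. Mcm6, a subunit of the helicase ring, moved most: on the CA arrays its ratio ran from 2.80 to 3.66 with a median of 3.30, and on the 4 UDCA arrays that measured it from 1.42 to 2.34 with a median of 2.27. Every CA array lay above every UDCA array. The fit gave 3.22 ± 0.10 with CA, 9.35-fold (adjusted p = 3.62e-10), and 1.93 ± 0.13 with UDCA, 3.82-fold (adjusted p = 3.94e-07). Its spots on UDCA replicates 4 and 5 were flagged by the scanner software and left out of the fit. The Mcm6 value came from a single 60-base probe (mm7, chr1:128211735-128211794, minus strand), given here so that the measured stretch can be looked up.
Mcm6 probe: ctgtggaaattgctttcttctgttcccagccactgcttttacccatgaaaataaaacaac

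The other subunits of the ring were each called higher under both diets. Mcm4 read 2.25 ± 0.17 with CA and 1.48 ± 0.17 with UDCA, Mcm3 2.12 ± 0.14 and 1.32 ± 0.14, and Mcm2 1.94 ± 0.18 and 0.96 ± 0.18. Mcm5 read 1.71 ± 0.15 and 1.12 ± 0.15, and Mcm7 read 1.69 ± 0.13 and 0.62 ± 0.12, without CA replicate 6, whose spot was flagged. The 6 subunits thus lay between 3.24-fold and 9.35-fold of wild type with CA and between 1.54-fold and 3.82-fold with UDCA. The knockout spot of Mcm4 was saturated on 2 CA arrays and that of Mcm7 on 1, so their ratios there are held down by the scanner's ceiling. UDCA replicate 6 read lowest for every subunit, from -0.10 for Mcm5 to 1.42 for Mcm6, and without it all 6 were still called higher with UDCA, Mcm6 at 2.08 and Mcm5 at 1.29. Mcm3 had a dimmer probe that read 1.08 ± 0.13 with CA and 0.24 ± 0.13 with UDCA (adjusted p = 0.224), so its call under UDCA rests on the brighter probe.

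**Figure D4:**
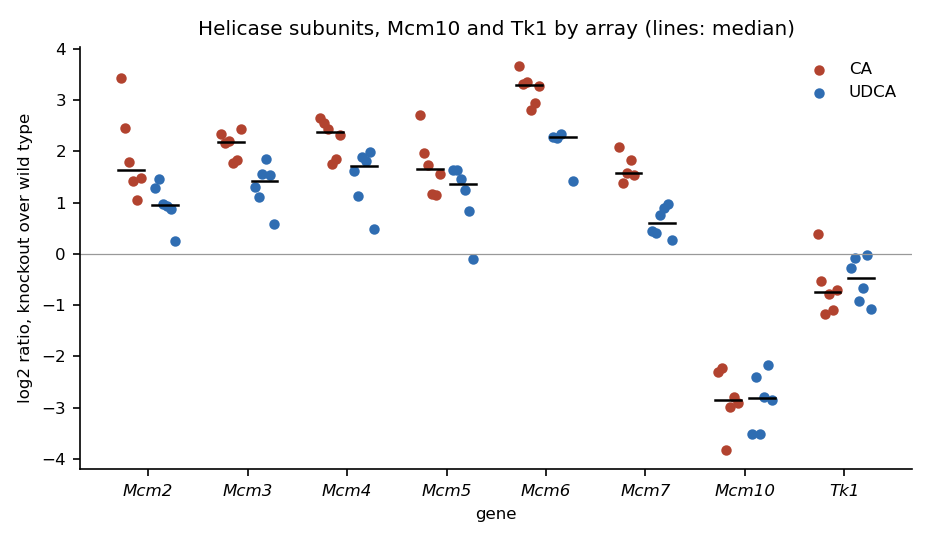
Log2 ratio of knockout over wild type (vertical axis) of the 6 subunits of the Mcm2-7 helicase, of Mcm10 and of Tk1 (horizontal axis) on each array, CA in red and UDCA in blue, with a line at the median of each group. All measured CA values of the 6 subunits lie above 1, while Mcm10 lies between -3.82 and -2.16 on all 12 arrays.

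Of the loaders, Cdt1, which brings the ring to the origin, read 1.77 ± 0.13 with CA and 1.16 ± 0.13 with UDCA, within the range of the ring subunits. Orc1, the largest subunit of the origin recognition complex, was the licensing gene with the lowest ratio under CA: its CA arrays ran from 0.16 to 1.32 with a median of 0.40, and its UDCA arrays from -0.15 to 0.45 with a median of 0.20. CA replicates 1 and 2 were the high ones, at 1.32 and 1.30, and the other 4 CA arrays lay within the UDCA range or just above it. The fit gave 0.64 ± 0.14 with CA (adjusted p = 0.000934) and 0.19 ± 0.14 with UDCA (adjusted p = 0.371). Without CA replicates 1 and 2 it read 0.33 with CA (adjusted p = 0.0396). In wild-type liver Orc1 was well above background on 2 of 12 arrays. Cdc6, the loader's ATPase, had the same shape, with CA replicates 1 and 2 at 1.81 and 1.70 and the others between 0.22 and 0.57; the fit gave 0.85 ± 0.17 with CA and 0.15 ± 0.17 with UDCA (adjusted p = 0.592), and without both arrays 0.45 with CA (adjusted p = 0.0279). Its wild-type channel was well above background on 4 of 12 arrays. Orc6, another subunit of the origin complex, read 0.87 ± 0.10 with CA and 0.22 ± 0.10 with UDCA (adjusted p = 0.122).

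The 4 genes of helicase activation did not move together: 3 were higher and 1 lower with CA, and with UDCA 1 was higher and 1 lower. Gins2, a subunit of the GINS complex, was the highest, from 0.70 to 2.02 with a median of 1.06 on the CA arrays and from 0.72 to 1.74 with a median of 0.92 on the UDCA arrays. The diets overlapped over nearly their whole range. The fit gave 1.25 ± 0.16 with CA and 1.04 ± 0.16 with UDCA (adjusted p = 1.05e-05 and 0.00026). Gins1, of the same complex, read 0.54 ± 0.10 with CA and 0.05 ± 0.10 with UDCA (adjusted p = 0.797). Cdc45, which joins the ring and GINS at the fork, read 0.66 ± 0.21 with CA (adjusted p = 0.0132), and that value leaned on CA replicate 1, at 2.51 where the other CA arrays ran from -0.06 to 0.93. Without CA replicates 1 and 2 Cdc45 read 0.19 (adjusted p = 0.167).

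Mcm10, which binds the assembled helicase and the first polymerase, went the other way and was the member that fell most. Its ratio ran from -3.82 to -2.22 with a median of -2.85 on the CA arrays and from -3.51 to -2.16 with a median of -2.82 on the UDCA arrays. It was below wild type on all 12 arrays, and the diets overlapped fully. The fit gave -2.84 ± 0.20 with CA, 0.14 times wild type (adjusted p = 1.85e-08), and -2.87 ± 0.20 with UDCA, 0.137 times wild type (adjusted p = 1.36e-07). It was called lower under all 27 processing alternatives, where it ran from -3.29 to -2.55 with CA and from -3.12 to -2.52 with UDCA. The array held 1 Mcm10 probe (mm7, chr2:4908072-4908131, minus strand, the strand of the gene), so no second probe bears on this value. The wild-type spot was saturated on 3 CA and 2 UDCA arrays, which holds the size of the fall down there, and both channels were well above background on all 12 arrays. Its neighbour Optn in the RefSeq gene order, a selective autophagy receptor, read -0.54 ± 0.13 with CA and -0.10 ± 0.13 with UDCA (adjusted p = 0.644), and the neighbour on the other side, Ucma, was not tested. The probe is shown because the fall rests on it alone.
Mcm10 probe: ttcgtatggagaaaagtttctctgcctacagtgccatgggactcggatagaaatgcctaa

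All 10 genes of the polymerases, clamp and loader were called higher with CA, with a median of 0.80, and 7 with UDCA, with a median of 0.42. Lig1, the ligase that joins the fragments of the lagging strand, led the group: its CA arrays ran from 1.34 to 2.54 with a median of 1.69 and its UDCA arrays from 0.63 to 1.18 with a median of 0.98. No CA array overlapped the UDCA arrays. The fit gave 1.76 ± 0.14 with CA, 3.38-fold, and 0.92 ± 0.14 with UDCA, 1.90-fold (adjusted p = 4.84e-08 and 0.000149). Prim1, the catalytic primase subunit that lays down the starting RNA, read 1.58 ± 0.11 and 0.91 ± 0.11. Pcna, the sliding clamp, read 1.40 ± 0.11 with CA and 0.48 ± 0.11 with UDCA. Pole, the leading-strand polymerase, read 1.12 ± 0.11 and 0.57 ± 0.11.

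Pola1, the polymerase that extends the primer, read 0.77 ± 0.10 with CA and 0.04 ± 0.10 with UDCA (adjusted p = 0.804), and its groups did not overlap. Among the subunits of the clamp loader, Rfc4 read 0.83 ± 0.10 and 0.42 ± 0.10, while Rfc5 read 0.41 ± 0.10 with CA and 0.08 ± 0.10 with UDCA (adjusted p = 0.609). Rfc3, a further subunit, had the lowest ratio of this group under CA, from 0.12 to 0.63 with a median of 0.35 on the CA arrays and from 0.03 to 0.60 with a median of 0.32 on the UDCA arrays. Its groups overlapped almost wholly, and the fit gave 0.36 ± 0.10 and 0.30 ± 0.10 (adjusted p = 0.00696 and 0.0455). The UDCA call of Rfc3 was lost under 12 of 26 alternatives. Rpa2, a subunit of the single-strand binding protein, read 0.47 ± 0.14 and 0.43 ± 0.14. Its second probe read 0.38 with UDCA (adjusted p = 0.0587), and the UDCA call was lost under 9 of 27 alternatives. Without UDCA replicate 6 Rpa2 read 0.38 with UDCA (adjusted p = 0.0968) and Rfc3 0.24 (adjusted p = 0.152). Fen1, the nuclease that trims lagging-strand flaps, read 0.43 ± 0.16 with CA (adjusted p = 0.0273) and 0.37 ± 0.16 with UDCA (adjusted p = 0.104). CA replicates 1 and 2 were the high ones for Fen1, at 1.34 and 0.91, and without them it read 0.12 (adjusted p = 0.545). Without the same arrays Rpa2 read 0.26 with CA (adjusted p = 0.116) and Rfc3 0.33 (adjusted p = 0.0507).

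Of the 5 genes of nucleotide supply, 3 were higher and 1 lower with CA, and 3 were higher with UDCA. Rrm1, the large subunit of ribonucleotide reductase, ran from 1.16 to 2.15 with a median of 1.42 on the CA arrays and from 0.39 to 0.97 with a median of 0.69 on the UDCA arrays, with no overlap. The fit gave 1.49 ± 0.12, 2.81-fold, and 0.67 ± 0.12, 1.59-fold (adjusted p = 7.72e-08 and 0.000866). Rrm2, the small subunit that completes the same enzyme, was not called: its CA arrays ran from -0.24 to 1.71 with a median of 0.22 and its UDCA arrays from -0.86 to 0.38 with a median of 0.05. CA replicate 1 was the single high array and UDCA replicate 6 the single low one, and the fit gave 0.40 ± 0.19 (adjusted p = 0.088) and -0.04 ± 0.19 (adjusted p = 0.913). Tyms, the synthase that makes thymidylate anew, read 0.81 ± 0.09 and 0.35 ± 0.09; its other probe read 0.25 with UDCA (adjusted p = 0.074), so that call rests on the brighter probe. Dut, which removes dUTP and yields the substrate of Tyms, read 0.63 ± 0.09 and 0.59 ± 0.09.

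Tk1, the kinase that salvages thymidine, was the other member below wild type. Its CA arrays ran from -1.18 to 0.38 with a median of -0.74, and its UDCA arrays from -1.07 to -0.01 with a median of -0.47. It was below 0 on 5 of 6 CA arrays, CA replicate 1 being the exception, and on all 6 UDCA arrays. The fit gave -0.65 ± 0.18 with CA (adjusted p = 0.0055) and -0.50 ± 0.18 with UDCA (adjusted p = 0.0528). Without CA replicates 3 and 4, which share a slide, Tk1 read -0.49 with CA (adjusted p = 0.0641). In the RefSeq gene order Afmid, a formamidase of the kynurenine pathway, overlaps Tk1, and its probes read -1.06 ± 0.09 and -1.40 ± 0.12 with CA and -0.43 ± 0.09 and -0.44 ± 0.12 with UDCA, all called lower. Syngr2, on the other side, read -0.04 ± 0.14 and -0.27 ± 0.14 and was not called. Whether the Afmid transcript reaches the Tk1 probe was not tested. Tk1 had a single probe (mm7, chr11:117924836-117924895, minus strand, the strand of the gene), shown for the same reason as that of Mcm10.
Tk1 probe: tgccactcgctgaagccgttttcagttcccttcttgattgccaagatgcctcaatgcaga

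The chromatin genes were all higher with CA, with a median of 1.15, and 1 of 3 with UDCA, with a median of 0.43. Uhrf1, which reads hemimethylated DNA behind the fork and brings in the maintenance methyltransferase, ran from 1.44 to 4.84 with a median of 2.63 on the CA arrays and from 0.37 to 1.07 with a median of 0.88 on the UDCA arrays. All CA arrays lay above all UDCA arrays, although the CA arrays spread widely, with replicates 1, 2 and 3 at 4.84, 3.45 and 2.93. The fit gave 2.75 ± 0.24 with CA, 6.72-fold, and 0.82 ± 0.24 with UDCA, 1.77-fold (adjusted p = 1.79e-07 and 0.0219). Without UDCA replicate 6 the UDCA value was 0.72 (adjusted p = 0.0664), and without CA replicates 1 and 2 the CA value was 2.20. A dimmer Uhrf1 probe read 1.82 ± 0.17 with CA and 0.45 ± 0.17 with UDCA (adjusted p = 0.0688), so the call under UDCA rests on the brighter probe. In wild-type liver Uhrf1 was well above background on 6 of 12 arrays. Chaf1a and Chaf1b are subunits of the chaperone that lays histones onto new DNA. Chaf1b read 1.15 ± 0.09 with CA and 0.24 ± 0.09 with UDCA (adjusted p = 0.0758). Chaf1a ran from 0.22 to 1.97 with a median of 0.70 on the CA arrays and from 0.14 to 0.59 with a median of 0.47 on the UDCA arrays, with CA replicates 1 and 2 high at 1.97 and 1.75. Its fit gave 0.96 ± 0.17 (adjusted p = 0.000247) and 0.43 ± 0.17 (adjusted p = 0.0936), and without those 2 arrays 0.50 with CA (adjusted p = 0.00524) and 0.43 with UDCA (adjusted p = 0.0059).

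The E-type cyclins, partners of the kinase that fires S phase, moved little. Ccne2 ran from 0.03 to 0.61 with a median of 0.43 on the CA arrays and from -0.12 to 0.50 with a median of 0.21 on the UDCA arrays, and the diets overlapped. The fit gave 0.38 ± 0.11 with CA (adjusted p = 0.00864) and 0.22 ± 0.11 with UDCA (adjusted p = 0.171). Its dimmer probe read 0.17 ± 0.09 with CA (adjusted p = 0.133), and without CA replicates 1 and 2 the brighter one read 0.25 (adjusted p = 0.142). Ccne1 ran from -0.77 to 0.37 with a median of -0.14 on the CA arrays and from -0.78 to 0.38 with a median of -0.43 on the UDCA arrays. It was called under neither diet, at -0.21 ± 0.14 and -0.37 ± 0.14 (adjusted p = 0.223 and 0.0738).

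Across the diets, 19 of the 34 members had a higher ratio with CA than with UDCA and none a lower one by limma (23 and 0 at an unadjusted p under 0.05), where 26.9% of all tested probes were called, 16.4% higher and 10.5% lower. The doses are not given, so this sets side by side a pair of diets of equal length and not equal exposures, and the wild-type partner of each diet was hybridised on separate arrays. Without the 5 members that met the filter through the knockout channel only, 17 of 29 were higher. Uhrf1 read 1.93 ± 0.34 (adjusted p = 0.00102) against a wild-type channel well above background on 4 of 6 CA and 2 of 6 UDCA arrays, and its dimmer probe read 1.37 (adjusted p = 0.000845). Among members whose wild-type channel met the filter the largest differences were Mcm6 at 1.29 ± 0.17, Mcm7 at 1.07 ± 0.18 and Mcm2 at 0.98 ± 0.25. Pcna and Chaf1b followed at 0.91 ± 0.15 and 0.91 ± 0.13. In 11 members (32.4% of 34, as against 6.04% of all tested probes) every CA array lay above every UDCA array: Chaf1b, Lig1, Mcm6, Mcm7, Orc6, Pcna, Pola1, Pole, Prim1, Rrm1 and Uhrf1. Among the 15 members not called in the difference the 95% interval of the difference was narrowest about 0 for Dut (-0.24 to 0.32) and Rfc3 (-0.25 to 0.37). It was wider for Rpa2 (-0.37 to 0.45), Fen1 (-0.41 to 0.53), Mcm10 (-0.57 to 0.64) and Tk1 (-0.68 to 0.39). Mcm5 differed by 0.59 ± 0.22 (adjusted p = 0.0566).

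The difference between the diets was the result most open to the slides. On slide 3, which held CA replicate 5 and UDCA replicates 1 and 2, the members' median difference after the fitted dye effect was taken out was 0.63, with 32 of 34 above 0. On slide 4, which held CA replicate 6 and UDCA replicates 3 to 5, it was 0.33, with 26 of 33 above 0. On slide 3 the CA knockout was in Cy3 and the UDCA knockouts in Cy5, so the 0.63 rests on that fitted dye effect. With the slide as a fixed block, 5 members stayed called higher, Chaf1b, Mcm7, Pcna, Pola1 and Uhrf1, with Fen1 called lower at -0.61 (adjusted p = 0.0377), and the median difference was 0.29. Of all tested probes 2365 were then higher and 1728 lower, beside 3561 and 2282 of 21688 in the reported fit. The fixed-block fit gave each slide its own dye effect in place of a shared one. CA replicates 1 and 2 and UDCA replicate 6 then had no weight on the diet values. With the slide as a random block 15 members were called higher, beside 3272 of all tested probes. Without CA replicates 1 and 2, 14 members were called higher in the difference, beside 2811 of all tested probes. Cdc6 then read 0.31 (adjusted p = 0.288), Cdt1 0.46 (adjusted p = 0.111), Mcm4 0.66 (adjusted p = 0.12), Pole 0.52 (adjusted p = 0.0534) and Rfc4 0.31 (adjusted p = 0.173). Without UDCA replicate 6, 18 members were called higher, beside 4079 of all tested probes, with Cdc6 at 0.66 (adjusted p = 0.0601). When arrays were median-centred without loess, 1 member was called in the difference, and with CA and UDCA 26 and 10 were called higher and 1 lower under each. Calls fell over all tested probes too, from 5843 to 815 in the difference. With CA they fell from 12919 to 6141 and with UDCA from 5085 to 1976. That scaling moved the median of all probes to 0.23 with CA and 0.29 with UDCA, and the share of calls that were higher from 57.4% to 80.4% with CA and from 64.2% to 94.4% with UDCA. With CA that share was 48.8% on the deposited values and 46.0% under the stricter filter on dim probes.

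**Figure D5:**
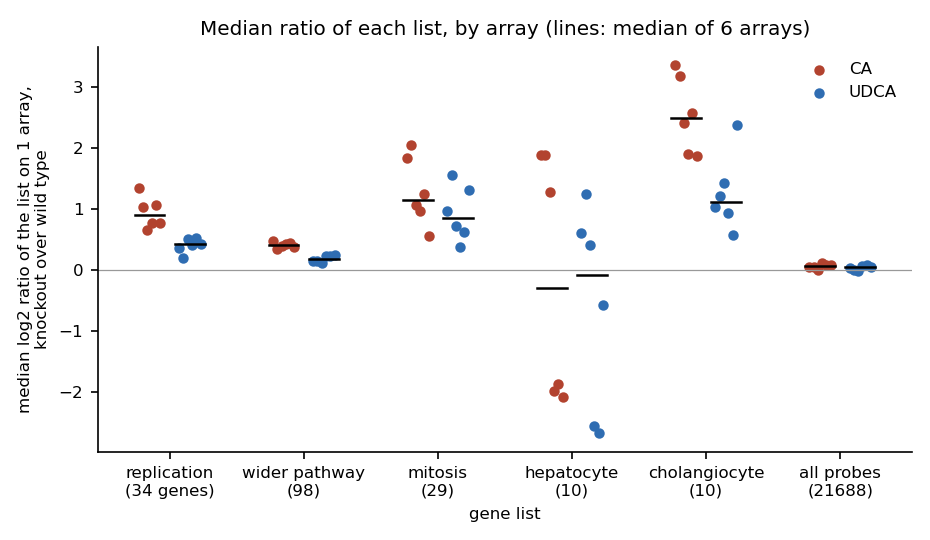
Median log2 ratio of knockout over wild type (vertical axis) of 6 gene sets (horizontal axis, number of genes or probes below each name) on each array, CA in red and UDCA in blue, with a line at the median of 6 arrays. The replication genes and the wider pathway separate the diets on every array, the mitosis genes overlap, and the hepatocyte markers split by dye orientation within each diet.

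The wider pathway, 100 other genes of replication, nucleotide supply and entry into S phase, was measured for 98. With CA 60 were higher and 9 lower, beside 34.2% and 25.4% of all tested probes, with a median of 0.43. With UDCA 31 were higher and 6 lower, beside 15.1% and 8.39% of all tested probes, with a median of 0.16. In the difference 25 were higher and 5 lower, beside 16.4% and 10.5% of all tested probes. Among the higher ones with CA were the S phase cyclin Ccna2 at 2.30 ± 0.19, the CTP synthase Ctps at 2.20 ± 0.15, the D-type cyclin Ccnd2 at 1.84 ± 0.11 and the chromatin remodeller Hells at 1.74 ± 0.20. Cdkn2b and Cdkn1a, both inhibitors of cell cycle kinases, were also higher, at 2.03 ± 0.17 and 1.84 ± 0.22. With UDCA Cdkn1a, the p53-responsive inhibitor, was the highest of the list at 2.23 ± 0.22, followed by Ccna2 at 1.60 ± 0.19, the D-type cyclin Ccnd1 at 0.93, the pocket protein Rbl1 at 0.88 and Dtl, which directs Cdt1 to degradation, at 0.83. Cdk6, the partner of the D-type cyclins, read 1.98 with CA and 1.19 with UDCA on its brightest probe, while its other probes read 0.28 and -0.02 with CA and 0.03 and 0.26 with UDCA and were not called.

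Lower with CA were Shmt1, which makes the folate cofactor of thymidylate synthesis, at -1.58 ± 0.14, the E2F partner Tfdp2 at -1.03, the pocket protein Rbl2 at -0.88, the folate enzyme Mthfd1 at -0.74, Cul4a at -0.70, the polymerase subunits Pold2 at -0.65 and Pole4 at -0.52, and the origin subunit Orc5 at -0.49. Lower with UDCA were Mycn at -0.88, Tfdp2 at -0.72, Rbl2 at -0.52, Shmt1 at -0.51 and the purine enzyme Paics at -0.49. The name E2f8 was also called lower, at -3.42 with CA and -1.43 with UDCA, on a probe that lies on the strand opposite to the gene (mm7, chr7:45107174-45107233, plus strand). The E2f8 probe on the strand of the gene read -0.05 and -0.16 and was not called. In the difference between the diets Ccnd2 (1.57), Ctps (1.42), Cdkn2b (1.36), Mycn (1.26), the kinase Cdc7 that fires origins (1.10) and Hells (1.08) were higher with CA. Shmt1 (-1.07), Cul4a (-0.47), Nme1 (-0.47) and Orc5 (-0.43) were lower, as was the opposite-strand E2f8 probe (-1.99).

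Genes of mitosis, the step after replication, rose under both diets: of 29 measured, 27 were higher with CA and 22 with UDCA, with medians of 1.19 and 0.97 and none lower by limma, 0 also at an unadjusted p under 0.05. In the difference 2 of the 29 were called higher and none lower (10 and 1 at an unadjusted p under 0.05), with a median of 0.32, beside 19 of 34 and 0.56 for the members. Of all tested probes 34.2% were higher with CA and 15.1% with UDCA. In the difference 16.4% of all tested probes were higher and 10.5% lower. The counts of the lists are side by side, and the lists were not tested against each other. Mki67, the proliferation marker, read 3.05 ± 0.17 with CA and 2.20 ± 0.17 with UDCA, and the topoisomerase Top2a 1.10 ± 0.26 and 0.12 ± 0.26 (adjusted p = 0.788). Array by array the mitosis median ran from 0.55 to 2.05 with CA and from 0.38 to 1.56 with UDCA, so that here the diets overlapped.

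Of the markers of other cell types, all 10 cholangiocyte markers were higher with CA and 7 of 10 with UDCA, 9 were higher in the difference, and their median per array ran from 1.87 to 3.35 with CA and from 0.58 to 2.39 with UDCA; Cftr was well above background on no wild-type array. All 10 stellate cell and fibroblast markers were higher with CA and 9 with UDCA, with array medians from 0.86 to 3.43 and from 1.28 to 2.04. Of 10 macrophage markers 6 were higher and 3 lower with CA, and 7 higher and 1 lower with UDCA, with array medians from 0.41 to 2.48 and from 0.36 to 1.29. Of the T and NK cell markers 7 of 10 were measured, and 4 were higher and 1 lower with CA and 1 higher with UDCA. Of the B and plasma cell markers 4 of 8 were measured, with 3 higher with CA and 1 with UDCA, and of the neutrophil markers 3 of 8, with 2 higher with CA and 1 with UDCA. Of 8 endothelial markers 3 were higher and 1 lower with CA and 1 was lower with UDCA. Of the erythroid markers 4 of 8 were measured, and 2 were lower with CA and 3 with UDCA. Of 10 hepatocyte markers 4 were lower with CA and 3 with UDCA, and none was higher by limma, 0 also at an unadjusted p under 0.05. The 3 measured pancreas genes were all lower with CA, lowest on CA replicates 3 and 4 with medians of -3.56 and -3.23, and without those arrays 30 members were called higher and 1 lower with CA. Beside these counts, 34.2% of all tested probes were higher and 25.4% lower with CA. With UDCA 15.1% were higher and 8.39% lower, and 16.4% were higher in the difference. The endothelial count of higher markers with CA lay near that share. What part any change in cell types has in the ratios of the replication genes was not tested.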

How the data were processed

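Hybridised on 12 arrays, 6 per diet from 5 knockout livers, was RNA of Abcb4(-/-) and Abcb4(+/+) liver in 2 colours. Per the file headers, Feature Extraction 9.5.3.1 wrote a mean intensity per spot and a local background median, neither of them normalized. Per the file headers the same software wrote processed signals and a log10 red to green ratio; the signals served as an alternative. The deposited series table holds log2 ratios, with how they were normalized not given in the sources used here. On spots well above background in both channels they followed the scanner's ratios with an absolute correlation between 0.775 and 0.971; turned the same way by the dyes in the labels, its CA columns ran as wild type over knockout and its UDCA columns as knockout over wild type, and its column medians ran from -0.04 to 0.05.

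Intensities were corrected with normexp (offset 50) and normalized by loess within each array (R 4.3.3, limma 3.58.1). Of 45018 spots, 1639 controls were left out; the rest gave 41174 probes after repeats were averaged. Scanner outlier flags removed 0.922% of the values that entered the fit. Probes had to stand well above background on 5 or more of the 6 arrays of a diet, in the knockout or the wild-type channel, and 21688 were tested. The log2 ratio was fitted with limma over all 12 arrays with CA, UDCA and a dye effect per probe, and p-values were adjusted by the Benjamini-Hochberg method over all tested probes, with calls at 0.05. Nothing says which arrays form the dye swap, so all 6 were kept and 1 pair per diet shares a liver, which can make p-values too small. The replicate numbers did not pair the samples. The fit was tested on simulated data first.

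Probes took current symbols from a RefSeq table through their accession (15535 tested probes), symbol (2807) or an older symbol (739), and 2607 kept the name in the file; Gins2 was found by an older name. The brightest tested probe stood for a gene, 9 members had further tested probes, and 4 member probes were too dim to test. Of 36 tested member probes that could be compared, all lay on the strand of the gene. Shown array by array were the highest and lowest member of each role with CA, and each member not called with CA or called lower. From the wider pathway, up to 8 called genes with the largest change per comparison and all called lower were named. The members and lists were chosen with earlier results of these data known. Alternatives covered background, scaling, filters, flags, dye, slide, replicate number, dye swap, deposited values, probe choice and each array left out; leaving out both arrays of a slide, values within slides and values by dye were added after seeing the data.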

Additional observations from a re-analysis of the deposited data

Results flagged for a closer look

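Of 68 groups of 6 or fewer arrays (34 members under each diet), 7 had an array further from its neighbour than a Dixon test at 95% allows; chance flags about 1 in 20 groups. CA replicate 1 was the high array in 3 of them, at 1.28 for Rpa2 (next 0.41), 2.15 for Rrm1 (next 1.48) and 1.71 for Rrm2 (next 0.48). CA replicate 4 was high for Pcna, at 1.87 (next 1.44). UDCA replicate 3 was high for Ccne1, at 0.38 (next -0.36). UDCA replicate 6 was low for Mcm6, at 1.42 of 4 measured arrays (next 2.26), and for Rrm2, at -0.86 (next -0.06).

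A difference between the diets, tested in the fit itself, marked 19 members, all with the larger ratio under CA. In licensing the CA minus UDCA values were 1.29 for Mcm6, 1.07 for Mcm7, 0.98 for Mcm2, 0.80 for Mcm3, 0.77 for Mcm4, 0.70 for Cdc6, 0.64 for Orc6 and 0.61 for Cdt1. In chromatin assembly they were 1.93 for Uhrf1 and 0.91 for Chaf1b. Among the polymerases and clamp genes Pcna differed by 0.91, Lig1 by 0.83, Pola1 by 0.73, Prim1 by 0.67, Pole by 0.54 and Rfc4 by 0.41. Rrm1 differed by 0.83 and Tyms by 0.47 in nucleotide supply, and Gins1 by 0.50 in helicase activation. The calls of Cdc6, Rfc4 and Mcm4 were lost under 16 of 26, 16 of 27 and 10 of 27 alternatives.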

How the results depend on the processing

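Over 27 alternatives the call of a single member in a single comparison kept its side of the threshold 2529 times, was lost 148 times and was gained 46 times. A change of sign that involved a call came once: with slide as a fixed block Fen1 read -0.61 in CA minus UDCA. Changes of sign between uncalled values were counted as kept. Ccne1 with CA, for example, read -0.21 as reported and up to 0.12 under the alternatives. Centring each array on its median called 11 members with UDCA and 1 in the difference, and 40, 12 and 4 genes of the wider pathway (CA, UDCA, difference). Of all tested probes it called 6141, 1976 and 815 in the same order, where the reported fit called 12919, 5085 and 5843 of 21688. Its member medians were 1.16 with CA and 0.81 with UDCA. The scanner's processed signals gave medians of 1.26 and 0.66 and 11 members in the difference, beside 5478 of all tested probes. Slide as a fixed block called 6 members and 17 wider pathway genes in the difference, beside 4093 of all tested probes, with a member median of 0.29. Leaving out each array in turn called 31 to 32 members with CA, 17 to 22 with UDCA and 15 to 21 in the difference, with medians of 0.80 to 0.93, 0.35 to 0.47 and 0.49 to 0.66. For the wider pathway it called 66 to 71, 28 to 39 and 21 to 29. Of all tested probes it called 11755 to 13247, 3953 to 5557 and 4390 to 6811. The causes were not tested.

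Same-numbered arrays of the diets shared a dye orientation and correlated between 0.35 and 0.49 for 5 of 6 numbers and at -0.22 for the sixth; with the dye effect taken out 1 of 6 was positive (0.13) and the others ran from -0.57 to -0.14, so the numbers were not taken to pair the samples. With the replicate block 30 members were higher and 2 lower with CA, 17 and 2 with UDCA, and 16 and 0 in the difference. For all tested probes these counts were 7035 and 5182, 2817 and 1568, and 2957 and 1771. Wild-type signal near background, as for Orc1, Cdc6, Chaf1a, Uhrf1 and Ccne2, limits how low a wild-type level can be read.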
